A study of Mus musculus with 10 samples.

Results

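The genes described here are those that could be compared between Bptf knockout Bsecs, a sorted mammary epithelial population, and the smaller of 2 deposited columns of mammary basal cells. A gene was taken where the mean of its normalised read counts in these columns was at least 50, which left 5673 of the 24000 genes in the table, and 13698 had at least 1 count in either column. No fold or p-value entered that choice. The study sequenced RNA from epithelial cells sorted by FACS from the mammary glands of female mice, to ask how Bptf acts on chromatin and on stem cells of the gland. Its 10 libraries formed 5 groups of 2, namely Bptf WT and Bptf KO luminal cells, Bptf WT and Bptf KO myoepithelial (basal) cells, and Bptf KO Bsecs. Every mouse, control or knockout, had been given tamoxifen (15 mg per kg in total) ahead of the sort. The labels give no Bptf allele, Cre line, promoter or age and do not spell out Bsecs, and WT Bsecs are not analysed here. The files hold 1 value per group, and do not say whether that value pools both libraries.

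The genotype of the basal column is open. It is headed WT in the table with Bsecs, but for 100% of 23973 genes its counts equal those of the column headed KO in the table that compares the basal groups with each other (for the column headed WT there, 40.4% of genes were equal). Bsecs may therefore be set here against basal cells of either genotype, so a difference between population and population cannot be told apart from one of genotype. The column is called the smaller basal column, after its total of 2036681 counts. The remaining basal column, of 2359861 counts, is called the larger. The luminal libraries titled KO name WT mice as their source in a second label, so their column is referred to as labelled KO luminal.

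In the mammary gland, basal cells form the outer layer of ducts and alveoli. They combine an epithelial keratin skeleton with a smooth muscle contractile apparatus, which ejects milk under oxytocin, and they sit on and help build the basement membrane. The inner luminal layer holds tight junctions, hormone receptors and the cells that make milk. Bptf is the largest subunit of NURF, a remodelling complex that slides nucleosomes.

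No difference below has a replicate check. Each ratio has an exact 95% interval (Clopper-Pearson, on how its reads divide over both columns), which covers the counting error of reads only. PCR copies are not independent molecules, so where reads are copies the interval is too narrow. A fold against a column with 0 counts is given as a lower bound, taken against a floor of 3 counts and without the counting error of the other column. The Bsecs column held 3659403 counts, and the ribosomal RNA precursor Rn45s took 32.2% of them against 16.2% of the smaller basal column. These shares move with the comparison, and their part in its results was not tested. Bptf had 645 counts in Bsecs and 420 in the smaller basal column, 1.21-fold higher (1.07 to 1.37) in Bsecs and 1.1-fold lower (0.989 to 1.22) against the larger basal column, and a total per gene cannot show whether some of its exons were deleted. In the text, counts are recovered reads, and a level is a normalised count on a scale shared by all 5 columns. Levels depend on transcript length and are compared between columns and not between genes.

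Most genes differed little between the columns. Of the 5673, 4813 (84.8%) lay within 4-fold and 3482 (61.4%) within 2-fold, around a median log2 ratio of 0.04. At least 4-fold higher in Bsecs were 400 genes (7.05% of those compared), and at least 4-fold lower were 460 (8.11%). For 282 of the higher and 323 of the lower genes the whole counting interval lay past 4-fold. Differences of at least 16-fold were seen for 149 of the higher and 131 of the lower genes, and of at least 64-fold for 43 and 49. The smaller basal column held 0 counts for 54 of the higher genes, and Bsecs held 0 for 25 of the lower genes. The genes nearest to the minimum on the inside were Tnk1 (20 counts in Bsecs and 73 in the smaller basal column), Abhd5 (34 and 62) and Fzd3 (48 and 51), and nearest on the outside Ppp6r2 (53 and 47), Zfp637 (6 and 84) and Rasa3 (58 and 43).

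**Figure D1:**
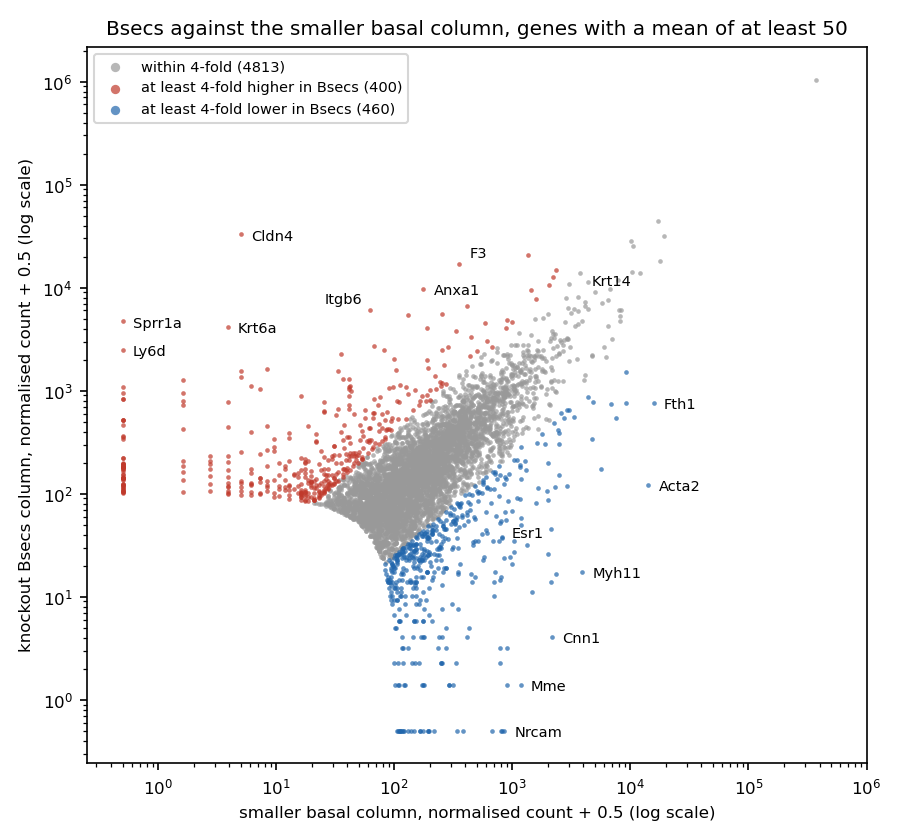
Normalised count of each gene in the smaller basal column (x axis) and in knockout Bsecs (y axis), both on log scales with 0.5 added, for genes with a mean of at least 50. Each point is 1 gene: grey for 4813 within 4-fold, red for 400 at least 4-fold higher in Bsecs, blue for 460 at least 4-fold lower, and the row of points at the left and the lowest row are genes with 0 counts in 1 column.

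The other 3 columns place these genes. Of the 400 higher genes, Bsecs had the highest level of all 5 columns for 258 (64.5%, against 28.0% of all genes compared), the column labelled KO luminal for 96 and the WT luminal column for 44. For 272 of the 400 the smaller basal column was the lowest of the 5 (68%, against 17.0%). Of the 460 lower genes, Bsecs was the lowest column for 264 (57.4%, against 15.7%) and the smaller basal column the highest for 315 (68.5%, against 25.8%). Part of this follows from choosing genes by a difference between these columns. Against the larger basal column, 458 genes were at least 4-fold higher in Bsecs and 454 lower. Both basal columns were set against the same Bsecs column, so their results are not independent, and values against the larger one are added below, as "against the larger", for genes with a printed fold that changed direction, lay on the other side of 4-fold or moved by over 4 times there. Lower bounds were not compared in this way, and genes without such a value can still differ in size by less than that.

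Adjusted over 13698 genes by the method of Benjamini and Hochberg, the p-values that DESeq gave in the authors' deposited table fell under 0.05 for 52 genes higher in Bsecs (0.38%) and 52 lower (0.38%), and unadjusted for 673. These p-values set 1 column against 1 column and hold no spread between replicates. Few of the most abundant genes passed. Among genes at least 4-fold apart, 28 of 386 with a mean of 50 to 100 had an adjusted p under 0.05, 31 of 261 from 100 to 300, 36 of 145 from 300 to 1000, 9 of 51 from 1000 to 3000, and 0 of 17 above that. The 17 were Cldn4, Timp3, F3, Plet1, Anxa1, Itgb6, Clu, Cdh1, Tagln2, Tubb6 and Tpm4, which were higher in Bsecs, and Acta2, Fth1, Lcn2, Hmox1, Mt1 and Slpi, which were lower. The largest mean among genes past that threshold was 2346. An edgeR exact test of the recovered counts with an assumed dispersion of 0.16, adjusted the same way, called 696 genes higher and 686 lower.

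**Figure D2:**
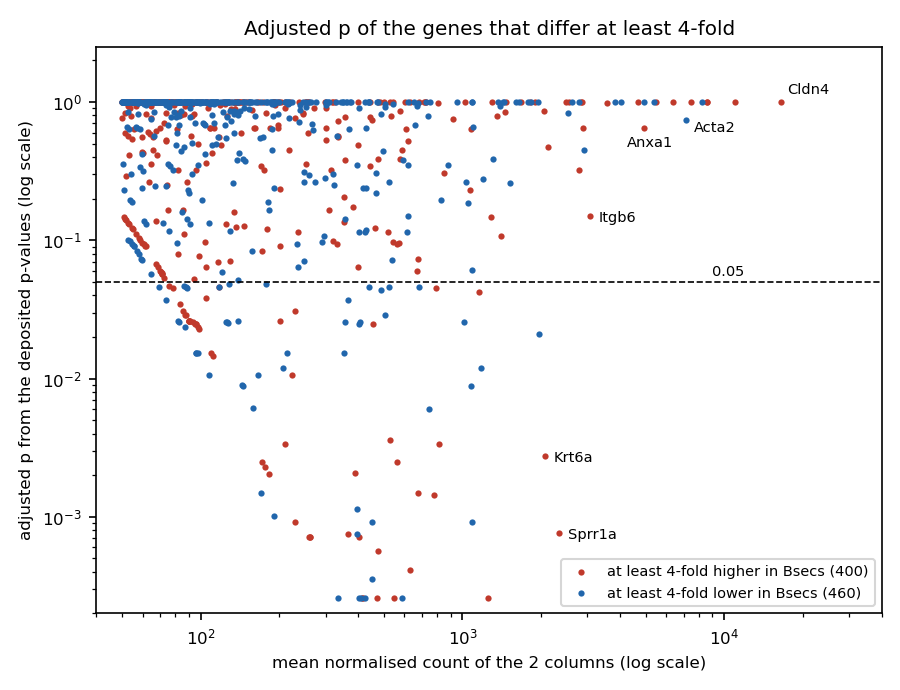
Adjusted p (Benjamini-Hochberg, from the p-values from DESeq in the authors' deposited table, log scale) against the mean normalised count of both columns (log scale) for the genes at least 4-fold apart, red for the 400 higher in Bsecs and blue for the 460 lower. The dashed line marks 0.05, and 0 of the 17 genes with a mean of at least 3000, Cldn4 and Acta2 among them, lie under it.

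The genes with the largest folds were not of 1 kind. Ranked by the bound of the interval nearest to no change, the first in Bsecs was Cldn4, a claudin of tight junctions, with 37070 counts against 4, 7299-fold (2850.4 to 26789). Next came Sprr1a, a precursor of the cornified envelope (5286 counts against 0, at least 1388-fold), and Ly6d, a surface protein of stratified epithelia (2814 against 0, at least 739-fold). Keratin 6a, induced in wounded epidermis, had 4664 counts against 3 (1224-fold, 419 to 5939, and 90.01-fold higher, 69.3 to 119 against the larger). Il18r1, a receptor for interleukin 18, was at least 323-fold higher, and Il1rn, the secreted antagonist of the interleukin 1 receptor, at least 279-fold. Il18r1 and Il1rn had 1232 and 1064 counts in Bsecs, 0 in the smaller basal column, and 13 and 31 in the larger. The list went on with the protease Adam8, the tubulin Tuba8, the citrulline-forming enzyme Padi2, the activin subunit Inhba, the EGF receptor ligand Epgn, the receptor Fgfr3, keratin 4, Skint3 and the membrane protein Basp1. Each of these 15 was at least 153 times the smaller basal column, by its ratio or its lower bound.

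At the other end stood Nrcam, a neural cell adhesion molecule, with 0 counts in Bsecs and 756 in the smaller basal column (at least 320.0-fold lower). Tenm2, a teneurin of cell contacts, had 0 and 730 (at least 309-fold lower), and Stac2, an adaptor of calcium channels, 0 and 713 (at least 302-fold lower). Layn, a hyaluronan receptor, was at least 143-fold lower, also with 0 counts in Bsecs. Among the first 15 were also Cnn1, Mme, Adam19, Myh11, Actg2, Entpd1, Ptprz1, Tgfbr3, Acta2 and Scn7a. Nrcam differed between the basal columns too: its level was 1004 in the smaller one and 26.9 in the larger one, so that Bsecs was at least 8.48-fold lower than the larger.

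**Figure D3:**
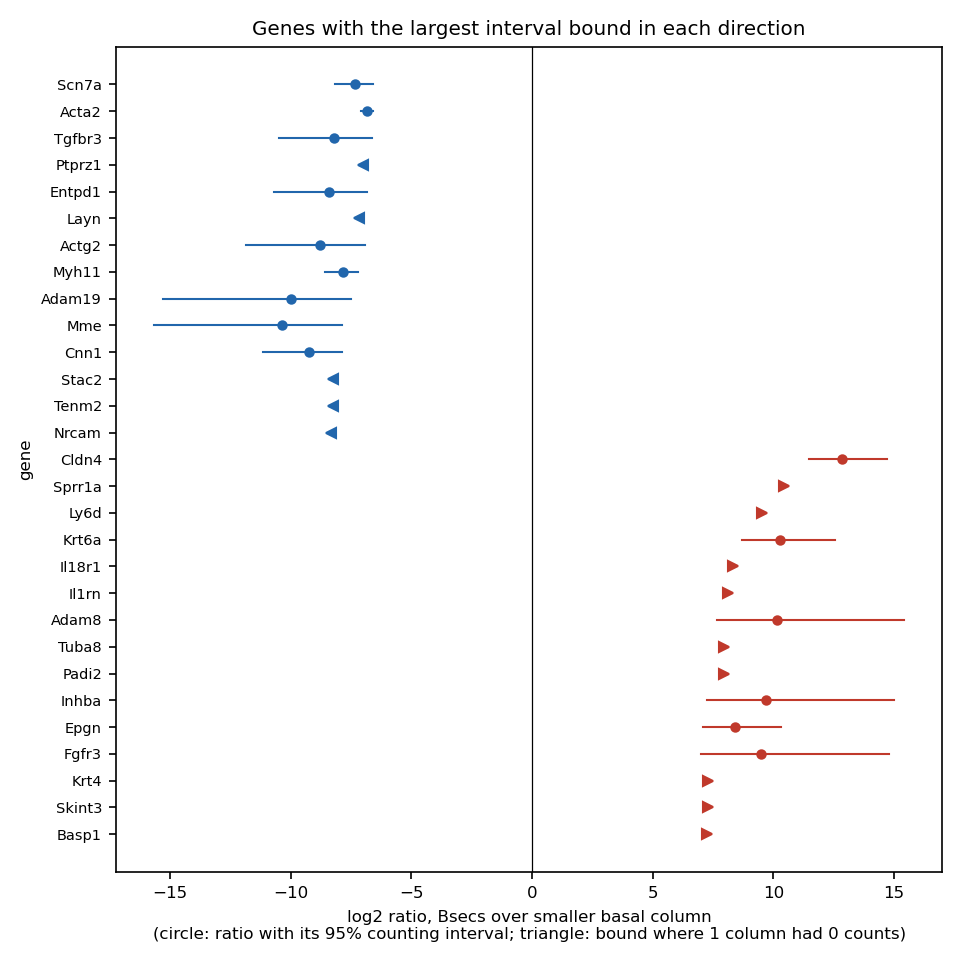
Log2 ratio of Bsecs over the smaller basal column for the genes with the largest interval bound, red for 15 higher in Bsecs and blue for 14 of the first 15 lower. Circles carry exact 95% counting intervals and triangles are lower bounds where 1 column had 0 counts. The genes were chosen by their interval bound, so their distance from 0, the line of equal values, follows from that choice.

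The contractile programme of basal cells was mostly, though not wholly, low in Bsecs. Of 23 smooth muscle contractile genes with a mean of at least 50, 12 were at least 4-fold lower and 0 higher, where 8.11% of all genes compared were lower. The median log2 ratio over the 28 with a count was -2.04, against 0.10 over all detected genes. Smooth muscle actin Acta2 had 137 counts in Bsecs and 12512 in the smaller basal column, 116-fold lower (98.00 to 138). Its level was 144 in Bsecs, 16618 and 11621 in the smaller and larger basal columns, and 66.5 and 33.9 in the columns labelled KO and WT luminal. Bsecs thus stood nearer to the luminal columns than to either basal one for this gene. Smooth muscle myosin Myh11 (19 counts against 3463, 231-fold lower, 148 to 385) and the calponin Cnn1 (4 against 1929, 612-fold lower, 239 to 2249.7, and 142-fold lower, 55.4 to 525 against the larger) were placed likewise. Mylk, the kinase that switches on smooth muscle myosin, had 29 counts against 1776 and was 77.8-fold lower (53.95 to 116). The enteric smooth muscle actin Actg2 was 444-fold lower (122 to 3672), the leiomodin Lmod1, which nucleates actin filaments, 23.8-fold (16.2 to 36.5), and the oxytocin receptor Oxtr 199-fold (35.3 to 7923), with 1 count in Bsecs. In contrast, tropomyosins Tpm1 (16151 against 9193) and Tpm2 (5981 against 7187) and the actin crosslinker filamin Flna (6870 against 7335) lay within 4-fold.

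Acta2 and Actg2 encode nearly the same protein, and reads may have been split between actin genes in the authors' counting. In a bulk sample fewer cells of a kind and less RNA per cell cannot be told apart, here and in every result that follows.

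Basal regulators and surface markers mostly lay within 4-fold. Of 10 with a mean of at least 50, 2 were at least 4-fold lower and 0 higher (list median -0.27). The lower genes were Mme, a membrane peptidase also known as Cd10 (1 count against 1040, 1321-fold lower, 236 to 52208), and Sox10, a transcription factor of neural crest and mammary epithelium (2 against 293, 186-fold lower, 51.04 to 1543). Trp63, the master regulator of basal epithelium, had 95 counts in Bsecs and 82 in the smaller basal column (1.1-fold lower, 0.806 to 1.49), but the larger column had 390 and Bsecs were 3.73-fold lower (2.98 to 4.72) than it. Integrin Itga6 was 1.37-fold lower (1.26 to 1.49) in Bsecs, P-cadherin Cdh3 1.93-fold lower (1.7 to 2.18), integrin Itgb1 1.66-fold higher (1.58 to 1.74) and the hyaluronan receptor Cd44 2.59-fold higher (2.5 to 2.68). All of these lay within 4-fold.

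The keratins split by type. The pair that defines basal cells was near equal to the smaller basal column: Krt5 had 3139 counts in Bsecs and 2392 in the smaller basal column (1.03-fold higher, 0.98 to 1.09) and Krt14 8490 and 5711 (1.17-fold higher, 1.13 to 1.21), while Krt17 was 1.52-fold lower (1.46 to 1.58). This did not hold for the larger basal column, against which Krt5 was 1.87-fold higher (1.77 to 1.98), Krt14 4.29-fold higher (4.1 to 4.5) and Krt17 2.46-fold higher (2.34 to 2.59). In the luminal columns Krt5 was at a level of 30.4 (labelled KO) and 0.892 (WT) against 3307 in Bsecs. Of 8 basal and stratified keratins with a mean of at least 50, 4 were at least 4-fold higher in Bsecs and 0 lower, beside a background of 7.05% higher (list median 0.96). They were Krt6a, its partner Krt16 (4586 counts against 169, 21.4-fold, 18.3 to 25.1, and 95.2-fold higher, 72.6 to 127 against the larger), Krt15, a keratin of basal and bulge keratinocytes (2557 against 31, 64.96-fold, 45.6 to 95.8), and Krt4, a keratin of mucosal stratified epithelium (590 against 0, at least 155-fold). The levels of Krt6a were 4914 in Bsecs, 3.98 and 54.8 in the basal columns, and 356 and 113 in the luminal ones. Krt6a, Krt16 and Krt15 were each higher in Bsecs than in any of the other 4 columns, whereas Krt4 was higher in the WT luminal column (level 716) than in Bsecs (622).

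Keratins of simple epithelium were also higher in Bsecs. Of 5 with a mean of at least 50, 3 were at least 4-fold higher and 0 lower (list median 1.61). Krt19 had 6121 counts against 116 (41.6-fold, 34.6 to 50.4, and 182-fold higher, 132 to 259 against the larger), Krt7 1222 against 36 (26.7-fold, 19.2 to 38.4, and 224-fold higher, 103 to 612 against the larger) and Krt18 2429 against 387 (4.94-fold, 4.44 to 5.52). Krt8, which pairs with Krt18, was 1.51-fold higher (1.32 to 1.72) and stayed within 4-fold, but 6.001-fold higher (4.94 to 7.33) against the larger basal column. For Krt18 Bsecs remained well under the luminal columns, with a level of 2559 against 16913 and 17652. Type I keratins such as Krt14, Krt16 and Krt17 are close in sequence, as are Krt6a and Krt6b, and their counts could have been shared.

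Genes of the cornified envelope and squamous differentiation were partly present. Of 9 with a mean of at least 50, 3 were at least 4-fold higher and 0 lower (list median 1.87). They were Sprr1a, Ly6d and Serpinb2, an inhibitor of plasminogen activators (1180 counts against 6, 155-fold, 70.9 to 423, and 15.6-fold higher, 12.5 to 19.8 against the larger). Serpinb2 was at a level of 1243 in Bsecs, 79.8 in the larger basal column and 15.9 and 28.5 in the luminal columns. Sprr1a and Ly6d were not particular to Bsecs: Sprr1a was at 5569 in Bsecs and 3607 in the column labelled KO luminal, and Ly6d at 2965 and 5008. Sfn (14-3-3 sigma), a stress protein of keratinocytes, had 50397 counts against 15284 and was 2.6-fold higher (2.55 to 2.64), within 4-fold, but 51.6-fold higher (48.5 to 54.8) than the larger basal column. Of the 39 genes of the list in the table, 18 had 0 counts in both columns, envelope genes such as loricrin (Lor) and Sprr1b among them.

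Adhesion between cells followed the same direction. Among cadherins, catenins and desmosome genes 4 of 14 were at least 4-fold higher and 0 lower (list median 0.998), and among tight junction genes 5 of 11 and 0 (list median 1.64), against 7.05% higher and 8.11% lower among all genes compared. E-cadherin, Cdh1, had 14270 counts against 1955 (5.75-fold, 5.48 to 6.03). The desmosomal cadherins Dsg3 (193 against 0, at least 50.7-fold) and Dsc2 (167 against 2, 65.8-fold, 17.9 to 547, and 15.3-fold higher, 8.53 to 30.2 against the larger) and the plakophilin Pkp2 (287 against 4, 56.5-fold, 21.8 to 209) were higher, while their linker desmoplakin, Dsp, was 1.43-fold higher (1.32 to 1.55). Dsg3, a keratinocyte desmoglein, was at a level of 203 in Bsecs, 5.77 in the larger basal column, 1.45 in the labelled KO luminal column and 0 in the WT one. Pkp2 and Dsc2 were also present in the luminal columns, with Pkp2 at 412 and 518 against 302.

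At the tight junction, Cldn4 was at a level of 39056 in Bsecs, 5.31 and 359.6 in the basal columns, and 27014 and 12308 in the luminal ones. Bsecs were therefore 7299-fold (2850.4 to 26789) above the smaller but 109-fold (98.5 to 121) above the larger basal column. For Cldn4 the p-value from DESeq in the authors' deposited table was 0.0762, with an adjusted p of 1. Cldn7 (251 counts against 0, at least 65.9-fold), the cytoplasmic plaque protein cingulin, Cgn (120 against 0, at least 31.5-fold), occludin, Ocln (234 against 11, 16.8-fold, 9.19 to 34.02), and tricellulin, Marveld2 (348 against 61, 4.49-fold, 3.41 to 5.999, and 3.42-fold higher, 2.75 to 4.27 against the larger), were the other 4. The scaffold Tjp1 (1.87-fold higher, 1.67 to 2.1) stayed within 4-fold.

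To show the DNA around the starts of genes at both extremes, promoter windows (250 bases before to 50 after the start) were read from RefSeq (GRCm38.p6) for Cldn4 and Sprr1a, first among the higher genes, and for Acta2 and Cnn1, abundant contractile genes among the lower. Capitals mark matches to the AP-1 motif TGANTCA, searched on both strands, and the sequences run 5′ to 3′ on the strand of the gene.
Cldn4, chr5:134946885-134947184, minus strand: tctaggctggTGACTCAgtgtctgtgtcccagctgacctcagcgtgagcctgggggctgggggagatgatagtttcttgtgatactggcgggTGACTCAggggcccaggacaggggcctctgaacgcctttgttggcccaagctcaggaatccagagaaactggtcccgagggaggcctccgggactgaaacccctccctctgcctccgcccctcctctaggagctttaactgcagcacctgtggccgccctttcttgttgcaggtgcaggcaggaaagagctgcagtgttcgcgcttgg
Sprr1a, chr3:92485832-92486131, minus strand: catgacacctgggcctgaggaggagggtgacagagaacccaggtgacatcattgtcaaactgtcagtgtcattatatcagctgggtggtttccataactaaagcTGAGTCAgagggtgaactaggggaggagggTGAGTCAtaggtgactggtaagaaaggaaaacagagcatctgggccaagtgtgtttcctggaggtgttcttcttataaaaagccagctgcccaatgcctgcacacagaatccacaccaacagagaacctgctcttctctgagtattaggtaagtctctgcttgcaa
Acta2, chr19:34255324-34255623, minus strand: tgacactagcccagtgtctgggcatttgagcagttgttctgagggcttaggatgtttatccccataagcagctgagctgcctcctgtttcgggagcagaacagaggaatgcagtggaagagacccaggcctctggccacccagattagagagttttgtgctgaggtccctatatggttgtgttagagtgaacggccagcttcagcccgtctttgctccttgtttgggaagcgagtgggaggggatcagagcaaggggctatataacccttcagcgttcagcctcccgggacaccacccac
Cnn1, chr9:22099003-22099302, plus strand: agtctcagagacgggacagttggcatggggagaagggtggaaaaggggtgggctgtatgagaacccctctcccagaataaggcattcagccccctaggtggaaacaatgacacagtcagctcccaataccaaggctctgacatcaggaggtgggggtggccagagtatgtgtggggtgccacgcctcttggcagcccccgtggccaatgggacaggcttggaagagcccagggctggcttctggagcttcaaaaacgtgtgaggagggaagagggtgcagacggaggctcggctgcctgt
The Cldn4 window held the AP-1 motif with its first base at -240 and -158 from the start and that of Sprr1a at -146 and -116, and those of Acta2 and Cnn1 held none. These 4 windows do not stand for their groups. A window of each of the lower genes Mylk, Adam19 and Mme held the motif, as did 1 of 8 windows of the lower contractile genes. Over all 32851 windows read from RefSeq, 7.81% held the motif, over the 5621 windows of the genes compared 5.30%, over the 408 of genes at least 4-fold higher 7.84% and over the 440 of genes lower 7.05%. The CArG box, the motif bound by serum response factor, was counted as an exact CCWWWWWWGG, with W being A or T, so variants were not counted. It was found in 1.63% of all windows, 1.64% of those of the genes compared, 2.21% of those higher and 2.5% of those lower. No overlap between the motifs was required or barred. Among contractile genes it was in 1 of 8 windows of those lower and 2 of 14 of those within 4-fold. A gene can have several overlapping windows. By gene, the CArG box was found for 85 of 4342 compared, 9 of 306 higher and 8 of 324 lower, and the AP-1 motif for 279, 29 and 29. Windows were matched for 4342 of the 5664 genes compared that had a usable symbol, and not for Myh11, Actg2, Tagln or Krt6a. A match describes the letters and not a bound site.

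**Figure D4:**
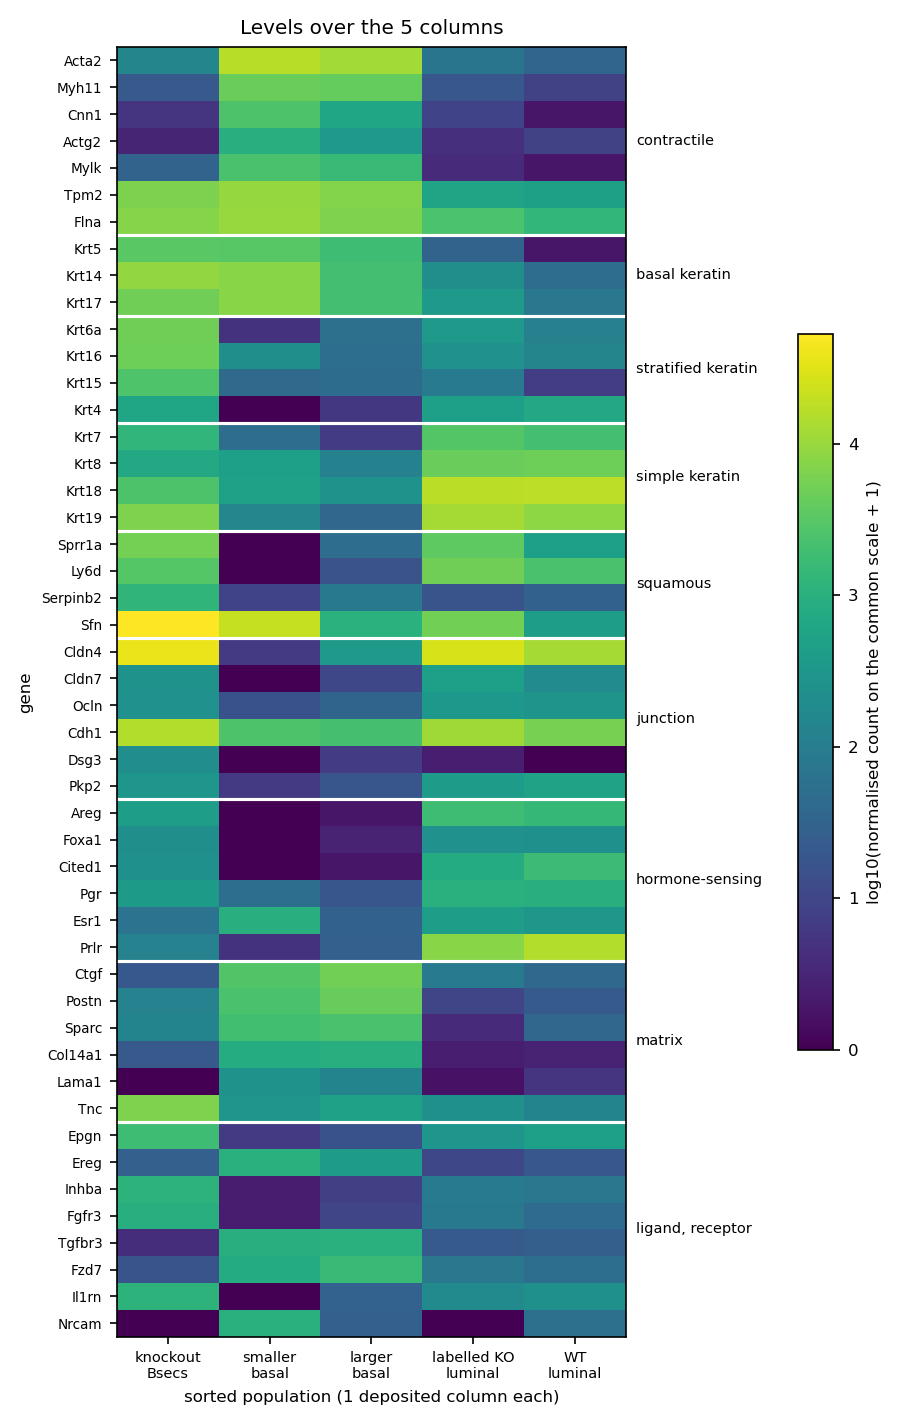
Level of genes named in the text (rows) in the 5 deposited columns, as the colour of log10 of the normalised count on the common scale plus 1, with white lines between gene groups. Contractile genes such as Acta2 and Myh11 are bright in both basal columns and dark in Bsecs and the luminal columns, Krt5 and Krt14 are bright in Bsecs and the basal columns, and Krt6a and Krt16 are brightest in Bsecs.

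Luminal genes were present in Bsecs selectively. Of 12 hormone-sensing luminal genes with a mean of at least 50, 8 were at least 4-fold higher and 1 lower (list median 3.13, the highest of the 49 lists apart from a list of lymphocyte markers with 2 detected genes). Amphiregulin, Areg, the EGF receptor ligand that carries the oestrogen signal, had 412 counts against 0 (at least 108-fold). The factor Foxa1, which opens chromatin for the oestrogen receptor, had 216 against 0 (at least 56.7-fold), and the coactivator Cited1 220 against 0 (at least 57.8-fold). The progesterone receptor Pgr was 7.49-fold higher (5.33 to 10.8), the prolactin receptor Prlr 31.2-fold (10.4 to 154), the surface proteins Ly6a (Sca-1) 119-fold (21.02 to 4728) and Prom1 11.1-fold (6.19 to 21.9), and the secreted glycoprotein Stc2 36.3-fold (25.6 to 53.2). Against the larger basal column Prlr was 4.67-fold higher (3.08 to 7.33) and Ly6a 4.89-fold higher (3.35 to 7.31). Bsecs did not reach the luminal columns for most of these: Prlr was at a level of 125 in Bsecs against 7786 and 15006, Cited1 at 232 against 795 and 1700.5, and Pgr at 371 against 1016 and 972. For Foxa1 (228 against 246 and 239) and Stc2 (1552 against 847 and 1344) the 3 columns lay within 2-fold of each other.

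The oestrogen receptor Esr1 was the lower gene of that list, and it depended on the basal column chosen. It had 60 counts in Bsecs and 713 in the smaller basal column, 15.1-fold lower (11.6 to 19.98), but 30 in the larger, against which Bsecs were 2.2-fold higher (1.4 to 3.53). In levels the smaller basal column, at 947, stood above even the luminal columns, at 434 and 319.

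Luminal progenitor and alveolar genes were mixed, with 4 of 10 at least 4-fold higher and 4 lower (list median -0.35). Higher were the factor Ehf (135 counts against 0, at least 35.4-fold), the retinoic acid enzyme Aldh1a3 (230 against 3, 60.4-fold, 20.4 to 295), the surface protein Plet1 (10725 against 1279, 6.6-fold, 6.23 to 7.004) and integrin Itga2. Lower were lipocalin Lcn2 (611 against 6654, 13.8-fold, 12.7 to 15.05), the iron carrier transferrin, Trf (10.3-fold, 6.02 to 19.02), the lipid droplet protein Plin2 (20.03-fold, 10.3 to 44.7, and 4.95-fold lower, 2.41 to 11.5 against the larger) and Xdh (4.72-fold, 3.44 to 6.59), which helps to secrete milk fat. The defining receptor and factor of progenitors were near absent from both columns, with Kit at 0 counts in Bsecs and 3 in the smaller basal column and Elf5 at 1 and 0. Gata3, which defines the luminal fate, was 2.93-fold lower (2.44 to 3.52) in Bsecs, within 4-fold.

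Integrins differed by chain. Of 13 with a mean of at least 50, 4 were at least 4-fold higher and 2 lower (list median 0.53). Itgb6, the chain of the epithelial integrin that activates latent TGF-beta and is induced in wounds, had 6864 counts against 55, 98.3-fold (75.4 to 131). Its partner Itgav had 3764 against 399 (7.43-fold, 6.7 to 8.26), Itgb8, another partner of Itgav, 110 against 5 (17.3-fold, 7.2 to 54.4), and the collagen receptor chain Itga2 2225 against 167 (10.5-fold, 8.96 to 12.4). Itgb6 was at 7232 in Bsecs, 73.1 and 138 in the basal columns and 2251 and 1362 in the luminal ones, so it was highest in Bsecs. Itgb8 depended on the basal column, since Bsecs were 1.39-fold (1.04 to 1.86) above the larger one. The chains Itga1, a collagen receptor (11.9-fold, 6.21 to 25.7), and Itga9 (5.29-fold, 3.13 to 9.41) were lower.

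The basement membrane genes mostly lay within 4-fold. Of 18 laminin, hemidesmosome and basement membrane genes, 4 were at least 4-fold lower and 1 higher (list median -0.65). Lama1, the alpha chain of embryonic-type laminin, had 0 counts in Bsecs and 191 in the smaller basal column (at least 80.8-fold lower). The plakin Dst, which ties keratins to hemidesmosomes, was 6.22-fold lower (5.78 to 6.69), laminin Lamb2 8.07-fold lower (5.6 to 11.9) (2.73-fold lower, 1.83 to 4.15 against the larger) and the collagen IV chain Col4a2 4.11-fold lower (3.51 to 4.82). Nidogen, Nid1, was 4.52-fold higher (3.15 to 6.68) here but 1.11-fold lower (0.916 to 1.34) against the larger basal column. The hemidesmosome collagen Col17a1 (1.78-fold lower, 1.66 to 1.91, and 1.42-fold higher, 1.31 to 1.53 against the larger) stayed within 4-fold.

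The interstitial matrix was the second group that was broadly low. Of 17 collagens and matricellular genes, 11 were at least 4-fold lower in Bsecs and 1 higher, where 8.11% of all genes compared were lower (list median -1.26). Ctgf, a matricellular protein and target of YAP and TGF-beta, had 18 counts against 2074 (146-fold lower, 92.3 to 247). Col14a1, a collagen that decorates fibrils, had 19 against 633 (42.3-fold, 26.9 to 70.7), and elastin, Eln, 3 against 102 (43.2-fold, 14.4 to 213). Periostin, Postn, had 119 against 1744 (18.6-fold, 15.4 to 22.6), and Sparc, a collagen-binding protein, 128 against 1456 (14.4-fold, 12.05 to 17.4). The collagen VI chains Col6a1 (13.3-fold, 7.51 to 25.6) and Col6a2 (20.4-fold, 12.9 to 34.4) were lower together. Tenascin C, Tnc, of wound and tumour stroma, ran the other way, with 6201 counts against 225 (21.7-fold higher, 19.00 to 24.9), and was at 6533 in Bsecs against 514 in the larger basal column and 232 and 132 in the luminal ones. Thbs1 (1.15-fold higher, 1.12 to 1.17, and 1.15-fold lower, 1.13 to 1.17 against the larger) stayed within 4-fold.

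Beside the matrix genes, the summed level of 12 fibroblast markers was 636 in Bsecs against 2787 and 6809 in the smaller and larger basal columns, of which Postn gave 2316 in the smaller. Of the 12, 4 had a mean of at least 50, 2 of these were at least 4-fold lower in Bsecs (Postn and Col1a1, both also in the matrix list) and 0 higher, and the list median was 0.15. Decorin, Dcn, was 1.51-fold higher (1.18 to 1.95) in Bsecs than in the smaller basal column and 6.52-fold lower (5.6 to 7.64) than in the larger. No marker of the list was at 0 in Bsecs and 1 (Clec3b) was at 0 in the smaller basal column. The part of fibroblast RNA in the matrix result was not tested.

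Proteases and their inhibitors went both ways, with 6 of 21 at least 4-fold higher and 7 lower (list median -0.34). Higher were Adam8 (1424 counts against 1, 1121-fold, 201 to 44327), the collagenase Mmp13 (46.5-fold, 12.6 to 388, and 5.64-fold higher, 3.59 to 9.25 against the larger), matriptase, St14 (1123 against 38, 23.3-fold, 16.9 to 33.1), Adam17, which sheds EGF receptor ligands (4.39-fold, 3.47 to 5.62, and 1.83-fold higher, 1.58 to 2.13 against the larger), Serpinb2 and the metalloprotease inhibitor Timp3 (23304 against 1193, 15.4-fold, 14.5 to 16.3). Lower were Adam19 (1 against 799, 1015-fold, 182 to 40121), Adam12 (5 against 377, 95.7-fold, 40.7 to 297), Adamts1 (193 against 5010, 32.96-fold, 28.5 to 38.3), Adamts5 (22.2-fold, 16.2 to 31.3), Adamts9 (12.6-fold, 6.76 to 25.9), Mmp2 (8.16-fold, 4.62 to 15.5) and tissue plasminogen activator, Plat (4.73-fold, 3.48 to 6.51). The 2 members of the ADAM family that were lower, and all 3 of the ADAMTS family that were, had levels in the larger basal column within 2-fold of those in the smaller, and Timp3 was at 24553 in Bsecs against at most 1748 in any other column.

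**Figure D5:**
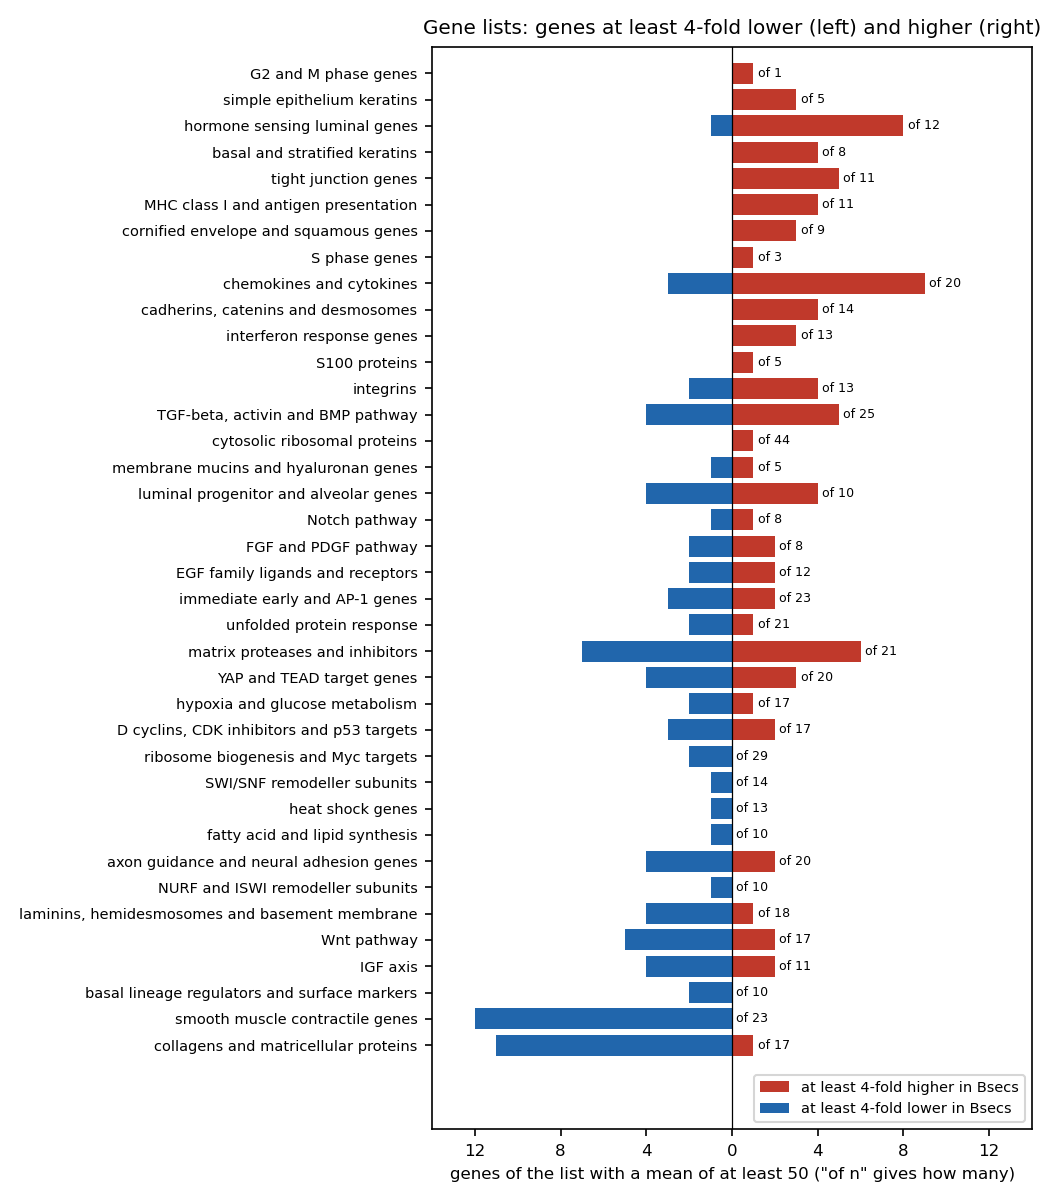
Number of genes at least 4-fold higher (red, right) and lower (blue, left) in Bsecs than in the smaller basal column for each of the gene lists of pathways and cell states, with the number of list genes that had a mean of at least 50 beside each bar. Contractile genes (12 of 23) and collagens and matricellular proteins (11 of 17) have the longest bars to the left, and hormone-sensing genes (8 of 12) and chemokines and cytokines (9 of 20) the longest to the right.

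Ligands of the EGF receptor differed in both directions. Of 12 genes of the family and its feedback, 2 were at least 4-fold higher and 2 lower (list median -1.13). Areg and epigen, Epgn (1749 counts against 4, 344-fold, 134 to 1265), were higher, while epiregulin, Ereg (26 against 760, 37.1-fold, 25.1 to 57.2), and the ERK phosphatase Dusp6 (8.27-fold, 6.61 to 10.4, and 1.54-fold lower, 1.18 to 2.02 against the larger) were lower. The receptor Egfr was 2.9-fold lower (2.6 to 3.23) and Erbb2 2.04-fold higher (1.67 to 2.5), within 4-fold, and Erbb3 was near absent from both columns, with 2 counts and 1 count. Epgn was at 1843 in Bsecs, 14.4 in the larger basal column and 308 and 466 in the luminal ones. The list median was near 0 against the larger basal column (0.00599).

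Among FGF and PDGF genes 2 of 8 were higher and 2 lower (list median -0.99). Fgfr3 had 903 counts against 1 (711-fold, 127 to 28120.1, and 110.4-fold higher, 57.9 to 242 against the larger) and Fgfbp1, which releases FGFs from matrix, 160 against 0 (at least 42.00-fold, but 4.09-fold, 2.91 to 5.87 against the larger basal column). Fgfr2 (4.13-fold, 3.46 to 4.95, and 2.56-fold lower, 2.14 to 3.08 against the larger) and the ligand Pdgfa (4.87-fold, 3.53 to 6.84) were lower.

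The TGF-beta, activin and BMP list had 5 of 25 genes at least 4-fold higher and 4 lower (list median -0.16). On the ligand side Inhba, the activin A subunit, had 1067 counts against 1 (840.3-fold, 150.5 to 33222, and 168-fold higher, 81.1 to 418 against the larger), Tgfb1 360 against 54 (5.25-fold, 3.94 to 7.13) and Tgfb2 1343 against 223 (4.74-fold, 4.11 to 5.49), all higher. Ltbp1, which stores latent TGF-beta in matrix, was 30.6-fold higher (24.2 to 39.3), whereas its relative Ltbp2 was 23.2-fold lower (18.9 to 28.7). Follistatin, Fst, which binds and blocks activin, was 7.66-fold lower (6.57 to 8.97). Of receptors, the co-receptor Tgfbr3 had 3 counts against 697 (295-fold lower, 101 to 1434) and Acvrl1 was 6.69-fold lower (3.82 to 12.5) and 2.97-fold lower (1.64 to 5.7) against the larger. The target Id2, an inhibitor of differentiation factors, had 164 counts against 0 (at least 43.1-fold higher).

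In the Wnt list 2 of 17 genes were at least 4-fold higher and 5 lower (list median -0.57). The ligand Wnt7b (694 counts against 22, 24.8-fold, 16.3 to 39.9) and the receptor-removing ligase Rnf43 (14.2-fold, 8.29 to 26.3, and 2.83-fold, 2.23 to 3.61 against the larger basal column) were higher. The receptor Fzd7 (15 against 618, 52.3-fold, 31.5 to 94.04), the R-spondin receptor Lgr4 (7.4-fold, 5.3 to 10.6), the transcription factor Tcf7 (4.002-fold, 2.68 to 6.11) and the secreted antagonists Sfrp1 (0 against 103, at least 43.6-fold) and Wif1 (4 against 211, 66.98-fold, 25.8 to 248, and 8.41-fold lower, 3.02 to 32.5 against the larger) were lower. In the Notch list 1 of 8 genes was higher, the receptor Notch1 (309 against 48, 5.07-fold, 3.73 to 7.02), and 1 lower, the coactivator Maml2 (7.72-fold, 5.69 to 10.7), with the ligand Jag1 near equal (1.04-fold lower, 0.957 to 1.12, and 1.1-fold higher, 1.02 to 1.19 against the larger, list median 0.47).

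In the IGF axis 2 of 11 genes were higher and 4 lower (list median -0.50). The binding proteins Igfbp5 (76 counts against 874, 14.6-fold, 11.5 to 18.7) and Igfbp7 (7.75-fold, 5.18 to 12.02), the protease Pappa, which frees IGF from binding proteins (2 against 222, 141-fold, 38.6 to 1171), and the adaptor Irs2 (5.8-fold, 4.27 to 8.02) were lower. Igfbp4 (9.2-fold, 6.41 to 13.7) and Stc2, an inhibitor of that protease, were higher. Targets of YAP and TEAD were divided, 3 of 20 higher and 4 lower (list median -0.0374). Tissue factor, F3, had 18939 counts against 314 (47.5-fold, 42.5 to 53.3) and Tead4 390 against 11 (27.9-fold, 15.4 to 56.4), while Ctgf, Ankrd1 (0 against 147, at least 62.2-fold lower) and the regulators Ptpn14 (5.38-fold, 4.43 to 6.57) and Wwtr1, or TAZ (4.88-fold, 4.23 to 5.65, and 2.65-fold lower, 2.29 to 3.09 against the larger), were lower. Cyr61, a close relative of Ctgf, was 1.87-fold higher (1.74 to 1.998), so these matricellular targets lay on opposite sides. Among axon guidance and neural adhesion genes 2 of 20 were higher and 4 lower (list median -0.29). The semaphorin Sema4a (67.99-fold, 23.01 to 332, 2.34-fold, 1.88 to 2.92 against the larger basal column) and the ephrin Efnb1 (14.8-fold, 9.36 to 24.9) were higher, and Nrcam, Sema5a (14.4-fold, 7.79 to 29.6), the ephrin receptor Epha4 (4.11-fold, 2.7 to 6.41, and 2.7-fold lower, 1.77 to 4.23 against the larger) and the netrin receptor Unc5b (11.4-fold lower, 6.69 to 20.98). Unc5b turned against the larger basal column, where Bsecs were 1.65-fold higher (0.693 to 4.11).

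Chemokines and cytokines were a group with many higher genes, 9 of 20, and 3 lower (list median 0.92). The chemokine Ccl20 had 214 counts against 0 (at least 56.2-fold) and the neutrophil attractant Cxcl3 149 against 4 (29.3-fold, 11.2 to 109). GM-CSF, Csf2, had 1179 against 36 (25.8-fold, 18.5 to 37.01), leukaemia inhibitory factor, Lif, 5093 against 517 (7.76-fold, 7.09 to 8.51), Tnf 368 against 19 (15.3-fold, 9.63 to 25.6) and the death ligand Tnfsf10 (TRAIL) 164 against 3 (43.1-fold, 14.5 to 211, and 4.1-fold higher, 2.92 to 5.86 against the larger). Csf2 was at 1242 in Bsecs, 47.8 and 47.1 in the basal columns and 11.6 and 2.68 in the luminal ones, whereas Tnf and Lif were also at 565 and 6071 in the column labelled KO luminal. The homeostatic chemokines Cxcl14 (55 against 1049, 24.2-fold, 18.5 to 32.4) and Cxcl12 (5.95-fold, 4.38 to 8.22) and the macrophage factor Csf1 (4.63-fold, 4.27 to 5.03, and 3.83-fold lower, 3.54 to 4.16 against the larger) were lower. Csf3 (1.48-fold higher, 1.4 to 1.57, and 6.81-fold higher, 6.22 to 7.46 against the larger) and Cxcl1 (1.74-fold lower, 1.65 to 1.84) stayed within 4-fold of the smaller column.

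Interferon response genes gave 3 of 13 higher and 0 lower, and their median turned with the filter: it was 1.44 over the 35 with a count, -0.26 over the 13 with a mean of at least 50, and -0.071 against the larger basal column. Ifi202b, of the DNA-binding Ifi200 family, had 1258 counts against 5 (198-fold, 84.7 to 611), the immunoproteasome subunit Psmb8 was 10.8-fold higher (6.28 to 20.1) (1.97-fold higher, 1.55 to 2.52 against the larger), and the RNA sensor Ddx58 (RIG-I) was 16.8-fold higher (7.94 to 42.4), but 1.06-fold lower (0.848 to 1.33) against the larger basal column. In antigen presentation by MHC class I, 4 of 11 genes were higher and 0 lower (list median 1.02): H2-T23 (14.7-fold, 6.95 to 37.4), H2-Q4 (4.14-fold, 2.87 to 6.13, and 2.63-fold higher, 2.004 to 3.48 against the larger), Psmb8 and Psmb10 (4.29-fold, 2.58 to 7.53). B2m, the light chain, was 1.53-fold lower (1.4 to 1.66), and H2 genes are alike in sequence, so their counts are uncertain.

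Cell division genes were scarce in both columns. Of 22 G2 and M phase genes with a count, 1 had a mean of at least 50, Anln, a scaffold of the contractile ring (1514 counts against 4, 298-fold higher, 116 to 1095), while Mki67 had 3 counts in each (list median 1.29). Of 28 S phase genes with a count 3 had a mean of at least 50, of which the histone RNA-binding protein Slbp (4.04-fold, 2.75 to 6.09, and 3.92-fold higher, 2.81 to 5.56 against the larger) was higher and 0 were lower (list median 1.05). Among D cyclins, CDK inhibitors and p53 targets 2 of 17 were higher and 3 lower (list median 0.14). The CDK inhibitor Cdkn1a (p21) had 4572 counts against 791 (4.55-fold, 4.22 to 4.92, and 21.9-fold higher, 19.1 to 25.1 against the larger) and the cell death gene Pmaip1 (Noxa) 115 against 0 (at least 30.2-fold). Phlda3 (6.01-fold, 4.22 to 8.78, and 2.22-fold lower, 1.51 to 3.34 against the larger), Zmat3 (5.26-fold, 3.72 to 7.6) and Tnfrsf10b (4.43-fold, 3.25 to 6.13, and 3.1-fold lower, 2.27 to 4.3 against the larger) were lower.

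Myc, the growth regulator, had 976 counts in Bsecs and 3897 in the smaller basal column (5.07-fold lower, 4.73 to 5.44, and 1.92-fold lower, 1.78 to 2.08 against the larger). Among ribosome biogenesis genes and Myc targets, Myc and Bop1 (5.73-fold, 4.72 to 7.01, and 1.03-fold lower, 0.806 to 1.32 against the larger) were lower, 2 of 29, and 0 higher (list median -0.083), and of 44 cytosolic ribosomal protein genes 1 was higher (Rpl3, 6.76-fold, 4.08 to 11.9, and 1.75-fold higher, 1.34 to 2.29 against the larger) and 0 lower (list median 0.23). Many ribosomal protein genes have processed copies that share reads. Of 23 immediate early and AP-1 genes 2 were higher, Egr3 (4.88-fold, 3.83 to 6.29) and the epithelial factor Klf4 (895 against 94, 7.5-fold, 6.06 to 9.38), and 3 lower, Myc, Egr2 (6.6-fold, 3.77 to 12.4) and Maff (4.48-fold, 3.79 to 5.31, and 1.28-fold lower, 1.05 to 1.55 against the larger) (list median -0.26). Fos (1.49-fold lower, 1.19 to 1.86, and 2.23-fold higher, 1.68 to 2.98 against the larger) and Jun (3.79-fold higher, 3.4 to 4.23, and 6.36-fold higher, 5.66 to 7.16 against the larger) stayed within 4-fold of the smaller column.

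In the remaining lists few genes were at least 4-fold apart. Some of their medians still lay away from the 0.10 of all detected genes, in both directions, such as those of fatty acid synthesis, heat shock and S100 genes. Hypoxia and glucose metabolism had 1 of 17 higher, the collagen hydroxylase P4ha2 (9.81-fold, 5.58 to 18.8), and 2 lower, adrenomedullin, Adm (130 counts against 2019, 19.7-fold, 16.5 to 23.7, and 3.61-fold lower, 2.97 to 4.41 against the larger), and Egln3 (6.88-fold, 4.67 to 10.4, and 2.43-fold lower, 1.59 to 3.81 against the larger) (list median -0.51). In the unfolded protein response Creld2 (4.89-fold, 3.16 to 7.87) was higher and Dnajb9 (45 against 495, 13.97-fold, 10.3 to 19.4) and Ddit3, or CHOP (5.03-fold, 3.67 to 7.002), lower, out of 21 (list median 0.59). Against the larger basal column Dnajb9 was 1.84-fold lower (1.27 to 2.69) and Ddit3 1.22-fold lower (0.832 to 1.79). Among heat shock genes 1 of 13 was lower, Hspa1a (5.76-fold, 3.85 to 8.86, and 2.85-fold lower, 1.87 to 4.45 against the larger), and 0 higher (list median -0.81). Fatty acid and lipid synthesis had 1 of 10 lower, Srebf2 (4.56-fold, 3.77 to 5.54, and 2.03-fold lower, 1.66 to 2.5 against the larger), and 0 higher (list median -1.21). Of 5 S100 genes 1 was higher, S100a14 (869 against 22, 31.1-fold, 20.4 to 49.9), and 0 lower (list median 1.73), and of 5 membrane mucin and hyaluronan genes Hyal2 (4.02-fold, 2.47 to 6.85, and 2.04-fold higher, 1.46 to 2.89 against the larger) was higher and Hyal1 (15.2-fold lower, 7.43 to 36.3) (list median 0.23).

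Chromatin remodellers mostly lay within 4-fold. Of 10 NURF and ISWI subunits, 1 was at least 4-fold lower in Bsecs, Chrac1 (28 counts against 210, 9.52-fold, 6.4 to 14.7, and 2.99-fold, 1.94 to 4.74 against the larger basal column), and 0 higher (list median -0.19). Of 14 SWI/SNF subunits, 1 was lower, the ATPase Smarca2 (4.44-fold, 3.21 to 6.26, and 2.03-fold lower, 1.43 to 2.91 against the larger), and 0 higher (list median -0.0792).

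Markers of other cells that a mammary sort can hold were mostly near 0. Of macrophage and dendritic, neutrophil, lymphocyte, pericyte, adipocyte, skeletal muscle and erythrocyte markers, 0 had a mean of at least 50, and their summed levels in Bsecs and the smaller basal column were 70.6 and 83.7, 0 and 1.33, 43.2 and 0, 47.4 and 91.6, 7.38 and 147, 7.38 and 54.5, and 20.02 and 3.98, in that order. Of 12 endothelial markers 7 were at 0 in Bsecs, Pecam1 among them, and 4 in the smaller basal column, and Flt1, a VEGF receptor (179 counts against 13, 10.8-fold higher, 6.18 to 20.8), was the single one with a mean of at least 50. Of 8 Schwann and nerve markers 2 had such a mean, Mbp (7.78-fold higher, 5.1 to 12.4, and 2.8-fold higher, 2.2 to 3.6 against the larger) and Sox10, which mammary epithelium also expresses. Of epidermis and hair follicle markers Krt15 was higher and Gata3 within 4-fold, while keratins 1 and 10 had at most 4 counts in either column. The part of these cells in the results was not tested.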

How the data were processed

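RNA of FACS-sorted cells was extracted with TRIzol, amplified with the Ovation RNA-seq V2 kit and made into libraries with the Ovation Ultralow DR kit, per the labels' protocols. The submitters' processing notes name STAR, DESeq and mm9, while for the counter, its annotation and its strand setting the notes give nothing. The authors deposited 6 tables of 24000 genes, and per the file headers each holds 1 mean signal (a normalised count) per group, a fold change and a p-value. Read counts were recovered by dividing each deposited column by its smallest step, which gave whole numbers (tolerance 0.01) for 100% of values. Neither per-library columns (0) nor columns of other origin (0) were found.

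Ratios were recomputed from the deposited signal with exact binomial 95% intervals. Genes at least 4-fold apart with a mean of at least 50 were counted, with no test. The authors' deposited p-values were adjusted by Benjamini-Hochberg over 13698 genes. Levels use median-of-ratios factors over the 5 columns, and list medians use log2 of values plus 1. List genes were those with a count in either column. The tools were Python 3.11.15, scipy 1.17.1 and edgeR 4.0.16 in R 4.3.3, and the steps were tested on simulated data. Named genes were Bptf, the 15 with the largest interval bound in each direction, up to 5 per list and direction by that bound, and genes that define lists. Some genes that this rule picks are not reported here. Any other gene named was picked once its values had been seen. The genes compared and the 49 lists (1115 entries, 7 unmatched) were chosen with earlier results of these data known. Symbols changed to dates or duplicated (27) were left out by name. Alternatives covered scale, filter, threshold, test and basal column. Totals of 2036681 and 3659403 counts limit precision for genes near 0. Gene coordinates are not printed, since the reference is not mm9, and promoter positions are those of GRCm38.p6.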

Additional observations from a re-analysis of the deposited data

How the results depend on the processing

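No paired analysis was possible because the columns carry no replicate numbers. For the same reason no replicate could be left out. The counts of 400 genes at least 4-fold higher and 460 lower in Bsecs became 991 and 1077 with a mean of at least 10, 133 and 141 with a mean of at least 200, and 1332 and 1464 with no filter. They became 1051 and 1140 at 2-fold and 217 and 226 at 8-fold, and with edgeR's exact test at a set dispersion of 0.16 they were 696 and 686. These moves follow from the construction of each alternative. Scaling by totals without Rn45s lowered every log2 ratio by 0.20 and gave 325 and 561, so that the share of higher genes among those apart went from 46.5% to 36.7%. Median-of-ratios factors over 5 columns gave 403 and 456, TMM factors 402 and 456, and the larger basal column 458 and 454.

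The 52 higher and 52 lower genes by the deposited p-values became 90 and 79 when adjusted over genes with a mean of at least 50, 696 and 686 with edgeR at a dispersion of 0.16, 2003 and 2099 at 0.04, and 34 and 38 against the larger basal column. Among lists with a median of at least 1 in size, some reversed: the EGF family to 0.00599 and interferon response genes to -0.071 against the larger basal column, interferon response genes to -0.26 and endothelial markers to 3.35 with a mean of at least 50, and Schwann and nerve markers to -1.99 with that mean and -2.74 against the larger basal column. Smaller medians were not counted. With that mean and 0 counts set to the floor, these also changed sign: the Notch list (-0.92), luminal progenitor and alveolar genes (0.55), hypoxia and glucose metabolism (0.43), fibroblast markers (-1.04), and epidermis and hair follicle markers (2.24). Reversal of a log2 ratio was counted for named genes at least 4-fold apart with a mean of at least 50. Of these, the log2 ratios of Ddx58 (-0.0863), Esr1 (1.14), Nid1 (-0.15) and Unc5b (0.72) reversed against the larger basal column, and the cause was not tested. Smaller log2 ratios were not counted, and some of them also changed sign there. Dcn went from 0.60 to -2.71, Krt17 from -0.61 to 1.30 and Fos from -0.57 to 1.16. Against the larger basal column 174 of 259 log2 ratios of named genes moved outside their counting interval and 81 stayed within it, and 19 of 49 list medians moved, so many sizes depend on the basal column. With totals without Rn45s 65 of 259 log2 ratios moved, and at a mean of at least 50 and a pseudocount of 10 the medians of 14 and 13 lists moved. By the same rules no list median and no log2 ratio of a named gene reversed under TMM factors or totals without Rn45s. These scalings shift log2 ratios by at most 0.20, too little to reverse values of the size that the rules require. List medians and log2 ratios near 0, such as that of Krt5, are within reach of the shift by Rn45s. Genes with under 5 counts in 1 column have wide intervals, and a level of 0 there does not show absence.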

Other observations

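The lists in this section were chosen after values were seen, so their counts describe the genes and support nothing. Of 26 antioxidant, iron and metal response genes with a mean of at least 50, 9 were at least 4-fold lower in Bsecs than in the smaller basal column, 17 lay within 4-fold and 0 were higher, where 8.11% of all genes compared were lower, with a list median log2 ratio of -1.70. Their summed level was 79730 in the smaller basal column, 36486 in Bsecs, 44119 in the larger basal column and 28312 and 27416 in the luminal columns, so the smaller basal column stood above the others in this sum. A few genes with many counts make up most of the sum. Metallothionein Mt2, with the most counts of the list in Bsecs, was near equal there (20545 against 15734, log2 ratio 0.04). Ferritin heavy chain, Fth1, which stores iron, had 859 counts against 13963 (20.6-fold lower, 19.3 to 22.1). Haem oxygenase, Hmox1, which releases iron from haem, had 859 against 8092 (11.96-fold lower, 11.1 to 12.8), and metallothionein Mt1 827 against 6105 (9.37-fold lower, 8.72 to 10.1). The sulfiredoxin Srxn1 was 6.19-fold lower (5.38 to 7.16), Gclm, a subunit of the first enzyme of glutathione synthesis, 5.07-fold lower (4.12 to 6.28) and thioredoxin reductase Txnrd1 4.73-fold lower (4.25 to 5.28). The cystine transporter Slc7a11 (1.94-fold higher, 1.78 to 2.12) and the transferrin receptor Tfrc (1.27-fold higher, 1.12 to 1.45) stayed within 4-fold. Against the larger basal column Hmox1 was 4.86-fold lower (4.52 to 5.24) and Mt1 2.71-fold lower (2.5 to 2.94), less than against the smaller, while Srxn1 was 2.71-fold lower (2.34 to 3.16), Gclm 3.71-fold lower (3.02 to 4.59), Txnrd1 3.14-fold lower (2.81 to 3.5) and Tfrc 1.46-fold lower (1.33 to 1.62).

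Related isoforms of the cytoskeleton lay on opposite sides. Transgelin, Tagln, had 169 counts in Bsecs and 2190 in the smaller basal column (16.5-fold lower, 14.1 to 19.4), while Tagln2 had 16611 and 2091 (6.26-fold higher, 5.98 to 6.55). Smooth muscle myosin Myh11 was lower, while the non-muscle myosin Myh14 had 822 counts against 1 (647-fold higher, 116 to 25600.5) and Myh9 was 2.74-fold higher (2.63 to 2.87). Tropomyosin Tpm4 was 4.88-fold higher (4.62 to 5.17) and Actb 2.42-fold higher (2.37 to 2.48). Against the larger basal column Myh14 was 39.3-fold higher (26.02 to 62.4), Myh9 4.17-fold higher (3.98 to 4.36), Tpm4 3.56-fold higher (3.41 to 3.72) and Actb 4.83-fold higher (4.7 to 4.96). Among all genes compared 7.05% were at least 4-fold higher and 8.11% lower, the background for the counts that follow. Of 20 actin, myosin and tropomyosin genes with a mean of at least 50, 3 were at least 4-fold higher and 6 lower. Of 9 tubulins, 3 were higher and 0 lower: Tubb6 (12015 against 1826, 5.18-fold, 4.93 to 5.45), Tubb2b (517 against 0, at least 136-fold) and Tuba8. Tubulins share much of their sequence, so these counts are uncertain. Of 5 genes of the interleukin 1 family and its receptors with a mean of at least 50, 4 were higher and 0 lower. Il1rn, Il18r1 and the decoy receptor Il1r2 (223 against 0, at least 58.5-fold) had 0 counts in the smaller basal column. Their Bsecs counts alone took them past that mean. Il33 had 221 counts in Bsecs and 31 in the smaller basal column, but 206 in the larger. Below that mean Il1rap had 4 counts against 55 and Il1rl1 95 against 8.

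Of the genes placed in order along the reference (12909 of 13678 with a count), 1 run of 3 neighbours differed in 1 direction, namely Gtf2h2, Ocln and Marveld2 on chromosome 13, all at least 4-fold higher in Bsecs. The run did not hold against the larger basal column, where Gtf2h2 was 1.13-fold higher (0.852 to 1.51) and Marveld2 3.42-fold higher (2.75 to 4.27). Strand use in the authors' counting is not given, so reads of neighbours that overlap could have been shared.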
